A study of Mus musculus with 12 samples.

Results

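Followed here are 10 rows of the gene count and RPKM tables, those of the p53 target genes Cdkn1a, Mdm2, Ccng1, Bax, Bbc3, Trp53inp1, Phlda3, Eda2r, Zmat3 and Sesn2. They were chosen by name as established targets of the transcription factor p53, with earlier results of these data known. They are 10 of the 38293 genes in the tables. All 10 passed the filter on low counts, among 14770 genes tested. The tissue was left ventricle from C57BL/6J mice without heart disease, taken 3 days after the chest was opened and the heart muscle was given 2 injections of 10 µl. In 4 libraries the injectate was Upy-PEG hydrogel carrying antimiR-195, in 4 it was the Upy-PEG hydrogel alone, and in 4 it was phosphate-buffered saline (PBS). AntimiR-195 is an oligonucleotide that blocks the microRNA miR-195. All mice had the same strain and the same operation, and the labels give no age or sex and no untouched heart, so no group here shows the level without surgery. The labels do not say that each library is a separate animal, and p-values measure the spread between these samples.

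p53 is a transcription factor held low in unstressed cells by Mdm2, an E3 ubiquitin ligase that is itself a p53 target. When DNA damage or other stress frees p53, it raises genes that stop the cell cycle, repair damage, curb growth signals or start apoptosis. Cdkn1a encodes p21, an inhibitor of cyclin-dependent kinases, and through p21 many genes of mitosis are lowered. In adult heart muscle, where most cardiomyocytes do not divide, the pathway is known mainly for its part in cell loss and in the withdrawal of cardiomyocytes from the cell cycle after birth. miR-195 belongs to the miR-15 family, which is known to restrain cardiomyocyte division in the mouse.

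The genes lie on GRCm38 at chr17:29090976-29100727 (Cdkn1a, plus strand), chr10:117688875-117710758 (Mdm2, minus), chr11:40748552-40755311 (Ccng1, minus), chr7:45461697-45466898 (Bax, minus) and chr7:16308393-16318205 (Bbc3, plus). The others lie at chr4:11156431-11174379 (Trp53inp1, plus), chr1:135766119-135769136 (Phlda3, plus), chrX:97333840-97377216 (Eda2r, minus), chr3:32334792-32366014 (Zmat3, minus) and chr4:132492032-132510501 (Sesn2, minus). Bax shares exons with Gm45808, an annotated gene on the same strand, so its counts are uncertain. A transcript on the opposite strand, AC167363.2, overlaps 2 exons of Cdkn1a. The libraries were stranded, but the strand setting of the counting is not given in the sources used here.

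p53 binds a pair of 10-base half-sites, and promoter windows reaching from 250 bases before to 50 after a start were available for 8 of the 10 genes, in 11 windows. The 3 windows printed hold the best full matches to the p53 consensus, allowing up to 13 bases between the half-sites. They are shown because they set the genes with a near-consensus pair beside their own expression values. Capitals mark the half-sites, the sequence is from RefSeq on GRCm38.p6, and each reads 5′ to 3′ on the gene's strand.
Cdkn1a, chr17:29090898-29090977, plus strand: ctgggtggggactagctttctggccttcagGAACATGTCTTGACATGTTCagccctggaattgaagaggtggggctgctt
Ccng1, chr11:40755432-40755511, minus strand: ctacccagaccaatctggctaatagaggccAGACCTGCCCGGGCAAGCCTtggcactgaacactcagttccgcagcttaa
Bax, chr7:45467049-45467129, minus strand: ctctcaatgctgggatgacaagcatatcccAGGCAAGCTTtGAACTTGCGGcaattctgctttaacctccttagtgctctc
The Cdkn1a and Ccng1 pairs differ from the consensus at 1 base and have no spacer, and such a match (1 mismatch or none) was found in 0.621% of 32851 promoter windows of the same length. The Bax pair has 2 mismatches and a spacer of 1 base, and 3.97% of windows held a match with up to 2. Mdm2 has a single half-site in its window, as do 8.36% of windows, and no full match with up to 3 mismatches. The Bbc3 windows hold matches only at 3 mismatches (15.6% of windows hold one with up to 3), and none was found in those of Phlda3, Sesn2 and Eda2r. A further Cdkn1a window, at chr17:29093519-29093818, held no half-site and no full match. Windows of Trp53inp1 and Zmat3 were not analysed here. These are matches of letters, read on both strands, and no binding was measured.

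The other sequence that bears on the experiment is the seed of miR-195, since antimiR-195 is directed at it. The mature sequences below are from RefSeq on GRCm38.p6, 5′ to 3′, with the seed (bases 2 to 8) in capitals. miR-195a-5p (chr11:70235062-70235082, plus strand) shares its seed with miR-15a-5p, miR-15b-5p, miR-16-5p, miR-497a-5p and miR-195b.
miR-195a-5p: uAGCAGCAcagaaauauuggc
miR-16-5p: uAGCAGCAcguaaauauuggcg
miR-497a-5p: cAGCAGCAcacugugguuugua
A match to the whole seed (TGCTGCT) stands in the annotated 3′ UTR of 5 of the 10 genes, and 22.3% of 21024 UTRs hold one. Each site is printed from GENCODE transcripts with the match in capitals; for Zmat3 the first of 3 sites is shown, and the other 2 overlap each other.
Cdkn1a: taatctggtgatcTGCTGCTcttttccc
Ccng1: aatttgtcagaacTGCTGCTtcaatcta
Phlda3: ggggggggtctccTGCTGCTtaggtcct
Eda2r: atagtaggctaagTGCTGCTgaggctgt
Zmat3: cttctctctccatTGCTGCTttagagta
Mdm2, Bax, Bbc3, Trp53inp1 and Sesn2 have no such match. Long UTRs hold a match more often: 61.3% of UTRs as long as that of Zmat3 hold one, and 12.7% of those as long as that of Phlda3.

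Gene totals ran from 22353241 to 30278621 counts per library. Cardiomyocyte markers, 10 genes, summed to 70400 to 112000 CPM (counts scaled to a common library size) in every library, as the label of left ventricle implies. Of 5 lymphocyte markers only Cd79a passed the filter, at 0.119 to 0.833 CPM. AntimiR-195 replicates 2 and 3 stood apart from the other 10 libraries: on the first principal component (35.1% of the variance) they lay at 60.2 and 40.7, against -33.4 to 8.48. Their levels also leaned towards short genes, by a slope of -0.229 and -0.135 on the log2 scale per doubling of gene length, against -0.0415 to 0.122 in the others. Gene lengths here and below are those implied by the deposited counts and RPKM. By these the 10 genes run from 869 bases (Bax) to 8088 bases (Zmat3). Fold changes of antimiR-195 that depend on these 2 libraries are therefore also given without them.

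Compared per length, as mean RPKM over the 12 libraries, Ccng1 was the most abundant of the 10 at 237 RPKM. Bax followed at 25.5 RPKM, then Phlda3 at 12.7, Mdm2 at 12.5 and Cdkn1a at 9.78. The place of Bax rests on a length of 869 bases, where its annotated exons together cover 1576 bases. Below them stood Trp53inp1 at 2.38, Zmat3 at 2.17, Bbc3 at 2.06, Sesn2 at 1.66 and Eda2r at 0.628 RPKM. In PBS hearts, Mdm2 (12.1 to 13.5 RPKM) and Phlda3 (6.89 to 12.9) overlapped, while Cdkn1a (5.9 to 6.71) lay below both. In Upy-PEG hearts the order of these 3 genes could not be told: Cdkn1a ranged from 8.12 to 18.6 RPKM, Phlda3 from 9.82 to 17.2 and Mdm2 from 12.6 to 14.5. Further down, Zmat3 overlapped Bbc3 and Bbc3 overlapped Sesn2 in PBS hearts. Trp53 itself averaged 5.92 RPKM. Close relatives of some members were far more abundant: Trp53inp2 averaged 131 RPKM against 2.38 for Trp53inp1, and Sesn1 45.3 RPKM against 1.66 for Sesn2.

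None of the 10 genes passed an adjusted p of 0.05 (edgeR's quasi-likelihood test with Benjamini-Hochberg adjustment over 14770 genes) in any of the 3 comparisons, and 0% of all genes did. DESeq2 also called none of the 10 in any comparison, while it called 3.53% of genes for Upy-PEG against PBS, 0.118% for antimiR-195 against Upy-PEG and 0.778% for antimiR-195 against PBS. At an unadjusted p under 0.05, 1 of the 10 was higher in Upy-PEG than in PBS (Cdkn1a; 9.33% of all genes were), 1 was lower in antimiR-195 than in Upy-PEG (Sesn2; 6.4%), and 2 were higher in antimiR-195 than in PBS (Cdkn1a and Bax; 8.65%). The median log2 fold change of the 10 was 0.2 for Upy-PEG against PBS, -0.13 for antimiR-195 against Upy-PEG and 0 for antimiR-195 against PBS, where the medians of all genes were -0.03, -0.01 and 0.01. Set the other way, none of the 10 was lower in Upy-PEG than in PBS (3.83% of all genes), higher in antimiR-195 than in Upy-PEG (6.67%) or lower in antimiR-195 than in PBS (7.89%) at that level. By range alone, no member of the 10 lay wholly below PBS in Upy-PEG (3.77% of all genes did), wholly above Upy-PEG in antimiR-195 (1.94%), or wholly above or below PBS in antimiR-195 (2.74% and 3.32%). The 3 comparisons share groups of libraries and are not independent of each other.

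**Figure D1:**
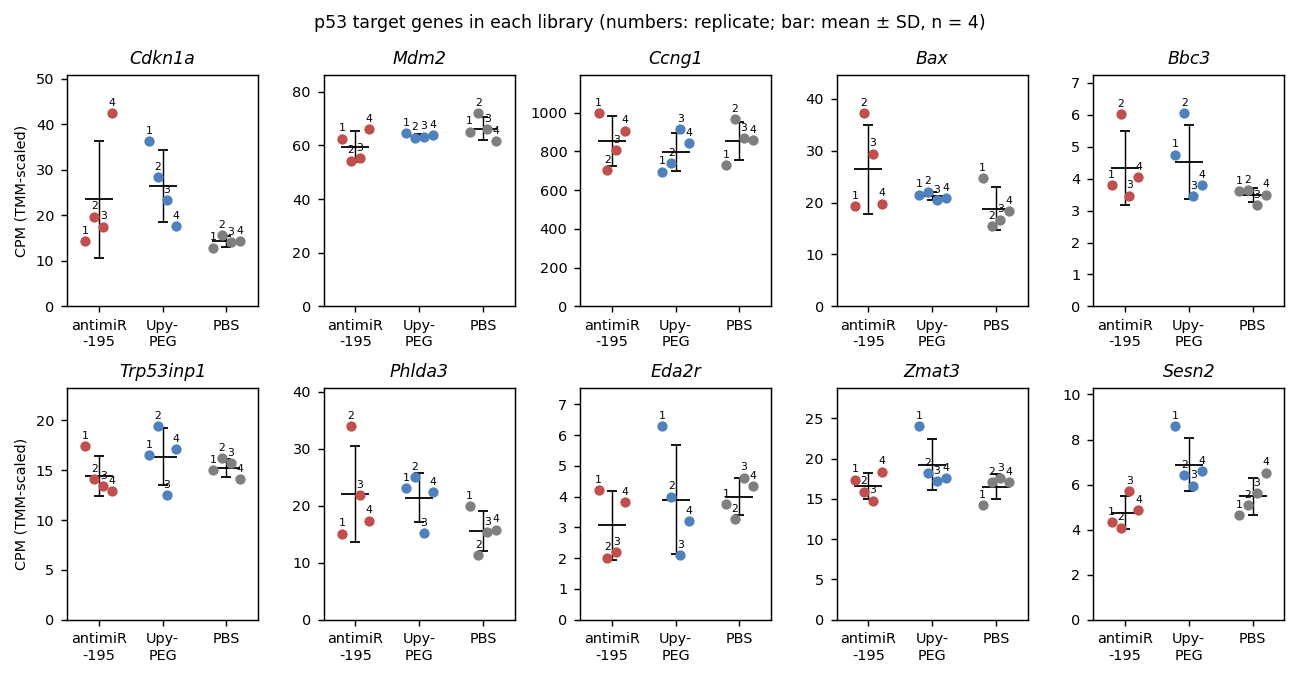
Normalised expression (CPM, linear axis from 0) of the 10 p53 target genes in each of the 12 libraries, with antimiR-195, Upy-PEG and PBS from left to right; numbers are replicates, and bars are the mean and SD of 4 libraries. Cdkn1a lies between 17.7 and 36.3 CPM in the 4 Upy-PEG libraries, above the 12.9 to 15.7 CPM of PBS, and antimiR-195 replicate 4 has 42.4 CPM.

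Cdkn1a, whose product p21 halts the cell cycle, had the largest log2 fold change of the 10 for Upy-PEG against PBS and for antimiR-195 against PBS. It measured 14.3, 19.7, 17.5 and 42.4 CPM in antimiR-195 replicates 1 to 4, 36.3, 28.3, 23.3 and 17.7 CPM in Upy-PEG replicates 1 to 4, and 12.9, 15.7, 14.1 and 14.4 CPM in PBS replicates 1 to 4. All 4 Upy-PEG libraries lay above all 4 PBS libraries, as 5.91% of all genes did in this comparison. Upy-PEG hearts averaged 26.4 ± 7.9 CPM and PBS hearts 14.3 ± 1.15 CPM (SD, n = 4 each), a 1.85-fold difference (log2 fold change 0.89, SE 0.294, 95% interval 0.25 to 1.52). Its unadjusted p was 0.0095 and its adjusted p 0.194. The spread among the Upy-PEG hearts was itself wide, 2.06-fold between highest and lowest, against 1.22-fold among PBS hearts. With the test fitted to the 8 Upy-PEG and PBS libraries alone, Cdkn1a passed, with an adjusted p of 0.0485, in a fit that called 1.18% of genes.

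In antimiR-195 hearts Cdkn1a averaged 23.5 ± 12.8 CPM (SD, n = 4), and replicate 4 set this mean. Against PBS the log2 fold change was 0.72 (SE 0.295, adjusted p = 0.277), and without antimiR-195 replicate 4 it was 0.27. Against Upy-PEG it was -0.17 (SE 0.29, adjusted p = 0.793), without replicate 4 it was -0.62, with an adjusted p of 0.157, and without replicates 2 and 3 it was 0.11. Replicates 1 to 3 of antimiR-195 lay between 14.3 and 19.7 CPM, across the top of the PBS range and the bottom of the Upy-PEG range. Over the 12 libraries, the genes whose log2 CPM followed Cdkn1a most closely were Arntl (Pearson r = 0.921), Nectin1 (0.914) and Grk5 (0.906), values that rest on few libraries and share their depth and scaling.

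**Figure D2:**
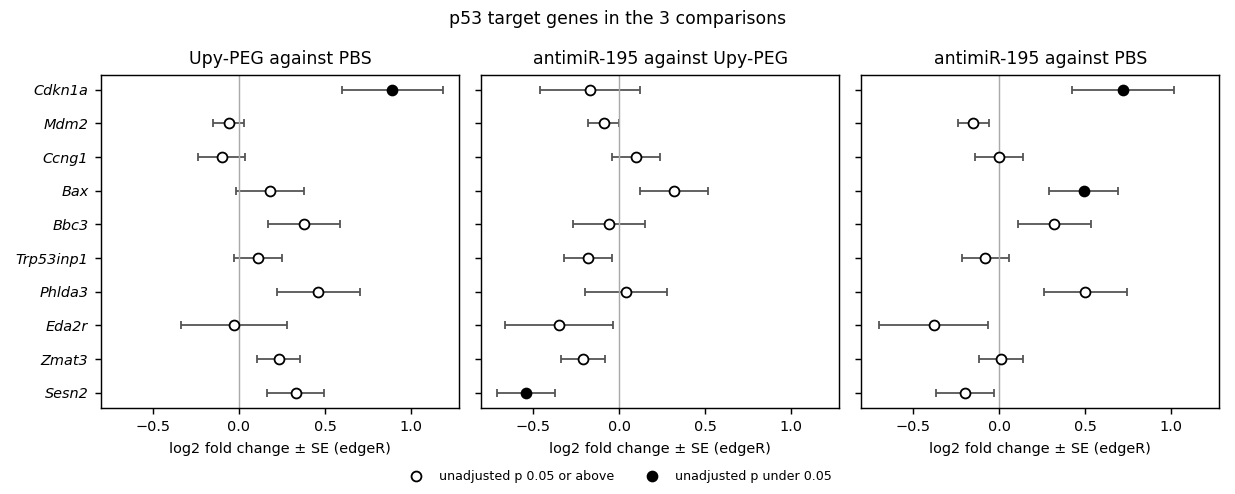
Log2 fold changes of the 10 genes in the 3 comparisons, with bars of 1 SE from edgeR; filled points have an unadjusted p under 0.05. Cdkn1a stands at 0.89 for Upy-PEG against PBS, Sesn2 at -0.54 for antimiR-195 against Upy-PEG, and Cdkn1a and Bax at 0.72 and 0.49 for antimiR-195 against PBS; no point passed the adjusted threshold.

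Mdm2, the member that holds p53 low, was nearly level. Mdm2 had 62.5, 54.3, 55.3 and 66.2 CPM in antimiR-195, 64.5, 62.9, 63.3 and 63.9 CPM in Upy-PEG, and 65.1, 72, 66.2 and 61.6 CPM in PBS libraries. The 4 Upy-PEG libraries differed by 1.03-fold at most. The log2 fold change of Mdm2 was -0.06 for Upy-PEG against PBS (SE 0.0903, 95% interval -0.25 to 0.14), which leaves out a difference as large as that measured for Cdkn1a. For antimiR-195 it was -0.09 against Upy-PEG (adjusted p = 0.613) and -0.15 against PBS (adjusted p = 0.375), and 0.02 and -0.03 without antimiR-195 replicates 2 and 3.

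Ccng1 encodes cyclin G1, which recruits protein phosphatase 2A to Mdm2. Its level was 997, 702, 805 and 907 CPM in antimiR-195, 695, 738, 913 and 841 CPM in Upy-PEG, and 729, 966, 868 and 857 CPM in PBS libraries, and all 3 groups overlapped. Its log2 fold changes were -0.1 for Upy-PEG against PBS, 0.1 for antimiR-195 against Upy-PEG and 0 for antimiR-195 against PBS, each with an SE of 0.138. The promoter pairs printed above for Ccng1 and Cdkn1a each differ from the consensus at 1 base, though not at the same position of the half-site. Their log2 fold changes for Upy-PEG against PBS were -0.1 and 0.89, and the part of the promoter pairs in these values was not tested. Trp53 mRNA, the transcript of p53 itself, averaged 25 ± 2.12 CPM in antimiR-195, 24.5 ± 2.53 CPM in Upy-PEG and 22.1 ± 1.58 CPM in PBS hearts (SD, n = 4 each), with log2 fold changes of 0.03 to 0.18. p53 is controlled largely at the level of its protein, which was not measured.

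Bax and Bbc3 are the members that act in apoptosis: Bax opens the outer mitochondrial membrane, and Bbc3 encodes Puma, which neutralises the survival proteins of the BCL2 family. Bax had 19.3, 37.2, 29.4 and 19.8 CPM in antimiR-195, 21.5, 22.1, 20.4 and 20.9 CPM in Upy-PEG, and 24.7, 15.4, 16.7 and 18.4 CPM in PBS libraries. The antimiR-195 replicates 2 and 3 were the highest of the 12, and the other 2 antimiR-195 libraries lay below every Upy-PEG library. The log2 fold change of antimiR-195 against PBS was 0.49 (SE 0.199, unadjusted p = 0.0275, adjusted p = 0.276), and without those replicates it was 0.06. Against Upy-PEG it was 0.32 (adjusted p = 0.458), and without them -0.12. By the lengths implied by the RPKM, Bax is the shortest of the 10 genes. Its annotated exons together cover 1576 bases, against 1559 for Phlda3. The part of gene length in the values of Bax was tested only by a fit with each library's length slope as a covariate. There antimiR-195 against PBS gave 0.12. Ranbp1 (Pearson r = 0.983), Ebp (0.979) and Rpl6 (0.979) followed Bax most closely over the 12 libraries.

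Bbc3 was a low gene, with 71 to 183 reads per library. It stood at 3.8, 6.02, 3.47 and 4.06 CPM in antimiR-195, 4.75, 6.05, 3.45 and 3.8 CPM in Upy-PEG, and 3.62, 3.65, 3.16 and 3.5 CPM in PBS libraries. Replicate 2 of each hydrogel group had its group's highest value, and the other libraries lay within the PBS range or above it by less. The log2 fold change was 0.38 for Upy-PEG against PBS (SE 0.209, adjusted p = 0.488) and 0.32 for antimiR-195 against PBS (SE 0.211, adjusted p = 0.415), or 0.18 without antimiR-195 replicates 2 and 3.

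Phlda3 encodes a small pleckstrin-homology protein that keeps the kinase Akt from the membrane. It measured 15.1, 33.9, 21.8 and 17.4 CPM in antimiR-195, 23.1, 25, 15.2 and 22.4 CPM in Upy-PEG, and 19.9, 11.3, 15.3 and 15.8 CPM in PBS libraries. Upy-PEG replicates 1, 2 and 4 lay above every PBS library, and replicate 3 lay within the PBS range. The log2 fold change was 0.46 for Upy-PEG against PBS (SE 0.241, adjusted p = 0.455) and 0.5 for antimiR-195 against PBS (SE 0.242, adjusted p = 0.309). Like Bax it is short, at 1559 bases, and it had its highest value in antimiR-195 replicate 2; without replicates 2 and 3 the difference from PBS was 0.07 and that from Upy-PEG was -0.4.

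Sesn2 encodes sestrin 2, a stress protein that dampens mTORC1 signalling and is also a target of the amino acid stress factor ATF4. It had 4.32, 4.09, 5.72 and 4.88 CPM in antimiR-195, 8.58, 6.41, 5.95 and 6.61 CPM in Upy-PEG, and 4.66, 5.09, 5.62 and 6.53 CPM in PBS libraries. Every antimiR-195 library lay below every Upy-PEG library, as 2.46% of all genes did, and the nearest values were close together. Means were 4.75 ± 0.726 CPM in antimiR-195 and 6.89 ± 1.16 CPM in Upy-PEG hearts (SD, n = 4 each). The log2 fold change was -0.54 (SE 0.166, 95% interval -0.9 to -0.18). Its unadjusted p was 0.00614 and its adjusted p 0.364. No gene had a lower adjusted p in this comparison, but many shared this value, among them Cdk2 at rank 1012 by unadjusted p. Sesn2 itself stood at rank 205. Without antimiR-195 replicates 2 and 3 the log2 fold change was -0.58. Sesn2 in antimiR-195 hearts was within the range of PBS or just under it (log2 fold change -0.2, adjusted p = 0.505), and its 3′ UTR holds no miR-195 seed match.

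None of the remaining 3 members reached an unadjusted p under 0.05 in any comparison. Trp53inp1, which takes part in autophagy and p53 activation, had 12.9 to 17.4 CPM in antimiR-195, 12.5 to 19.4 in Upy-PEG and 14.1 to 16.2 in PBS libraries, with log2 fold changes of 0.11 for Upy-PEG against PBS and -0.18 for antimiR-195 against Upy-PEG. Zmat3, an RNA-binding zinc finger protein, had 14.8 to 18.4 CPM in antimiR-195, 17.2 to 24 in Upy-PEG and 14.2 to 17.6 in PBS libraries. The largest of these values came from Upy-PEG replicate 1, and the log2 fold change for Upy-PEG against PBS was 0.23 (SE 0.126, adjusted p = 0.49). For antimiR-195 against Upy-PEG it was -0.21 (SE 0.127, adjusted p = 0.437). Eda2r, a receptor of the tumour necrosis factor family for ectodysplasin A2, was the lowest of the 10 per length. It had 4.22, 2.02, 2.2 and 3.83 CPM in antimiR-195, 6.28, 4, 2.1 and 3.21 CPM in Upy-PEG, and 3.75, 3.27, 4.62 and 4.34 CPM in PBS libraries. Its lowest antimiR-195 values were in replicates 2 and 3, below every PBS value. The log2 fold change was -0.38 against PBS (SE 0.315, adjusted p = 0.513) and -0.35 against Upy-PEG (SE 0.314, adjusted p = 0.594), and 0.02 and 0.04 without them.

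**Figure D3:**
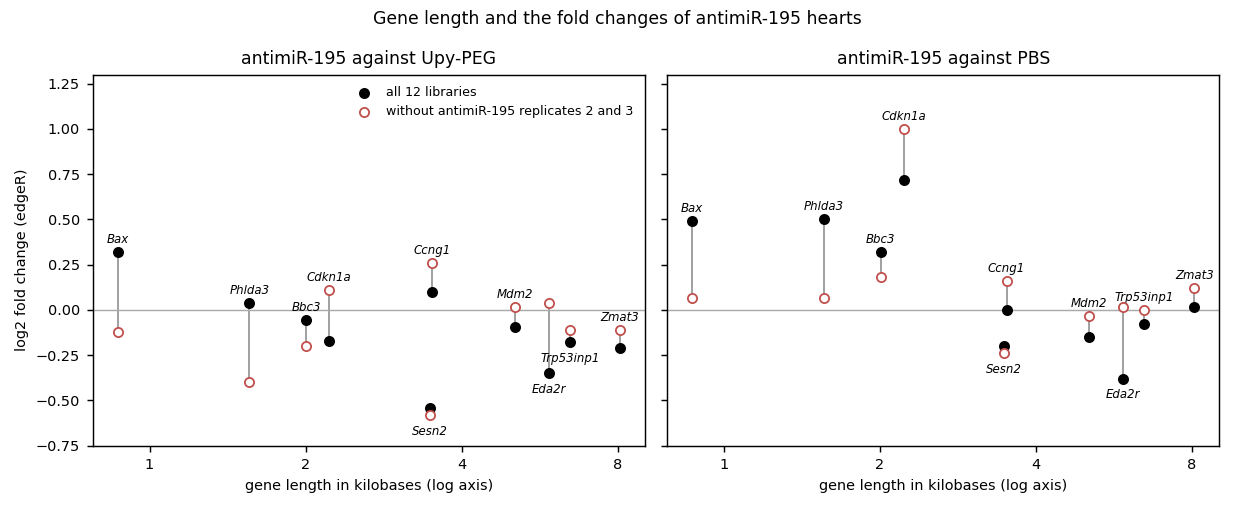
Log2 fold change of antimiR-195 against Upy-PEG (left) and against PBS (right) for the 10 genes, by gene length in kilobases on a log axis; filled points use all 12 libraries and open points leave out antimiR-195 replicates 2 and 3, joined by a line. Against PBS, the short genes Bax and Phlda3 stand at 0.49 and 0.5 with all libraries and at 0.06 and 0.07 without the 2, and Eda2r, at 5891 bases, at -0.38 and 0.02.

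The 5 genes with a miR-195 seed match did not share a direction when antimiR-195 was set against Upy-PEG, except that all 5 were negative in the 3 fits without TMM scaling. These were library size alone, RPKM plus 0.1 and RPKM plus 1, in which the median of all genes shifted by -0.15, -0.15 and -0.1. Phlda3 stood at 0.04 and Ccng1 at 0.1 on the log2 scale, and Cdkn1a at -0.17, Zmat3 at -0.21 and Eda2r at -0.35. Of the 5 with no match, Bax stood at 0.32 and the others between -0.54 (Sesn2) and -0.06 (Bbc3). No adjusted p among the 10 was below 0.364 here.

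Genes that act around p53 were described from lists of other targets, regulators and downstream genes, none of which had a member past an adjusted p of 0.05. Of 12 regulators, 11 were tested and none reached an unadjusted p under 0.05 for Upy-PEG against PBS (13.2% of all genes did) or for antimiR-195 against Upy-PEG (13.1%). Trp53bp1, a DNA damage adaptor, was the only one of the 11 to do so for antimiR-195 against PBS, where 16.5% of all genes did, with 20.9 ± 4.58 CPM in antimiR-195 and 28.4 ± 2.18 CPM in PBS hearts (SD, n = 4 each; adjusted p = 0.253). It is 14164 bases long, and without antimiR-195 replicates 2 and 3 none of the 11 did so (2.2% of genes were higher and 2.28% lower at that level). Of 30 other p53 targets, all tested, 5 were higher and 1 lower in Upy-PEG than in PBS at an unadjusted p under 0.05, where 9.33% and 3.83% of all genes were. Their median log2 fold change was 0.06. Psrc1, which encodes a spindle protein, averaged 3.15 ± 0.861 CPM in Upy-PEG and 1.39 ± 0.297 CPM in PBS hearts (SD, n = 4 each; log2 fold change 1.18, adjusted p = 0.111). Gtse1, a microtubule-binding protein of dividing cells, stood at 1.25 (adjusted p = 0.181). The lower one was Xpc, a sensor of damaged DNA in nucleotide excision repair, at -0.29 (SE 0.111, adjusted p = 0.271).

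**Figure D4:**
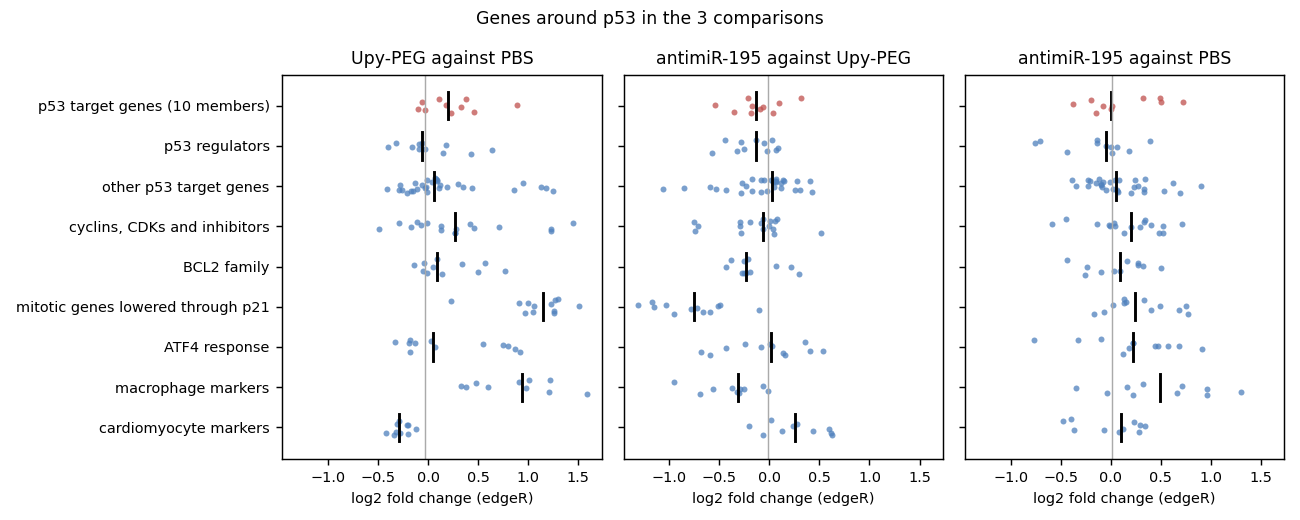
Log2 fold changes of single genes (points) in the 10 p53 target genes and in 8 lists of genes around them, for the 3 comparisons; black bars are list medians and the grey line is the median of all genes. For Upy-PEG against PBS the 12 mitotic genes have a median of 1.15 and the 10 macrophage markers one of 0.94, while the 10 p53 targets have one of 0.2.

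Mitotic genes that p21 is known to lower were on the higher side in the same hearts in which Cdkn1a was. All 12 of them had a positive log2 fold change for Upy-PEG against PBS, 11 of them at an unadjusted p under 0.05 (9.33% of all genes were higher at that level), with a median of 1.15. Mki67, the proliferation marker, averaged 28.4 ± 11 CPM in Upy-PEG and 12.1 ± 3.8 CPM in PBS hearts (log2 fold change 1.23, adjusted p = 0.0971). Bub1, a spindle checkpoint kinase, averaged 3.74 ± 1.3 CPM in Upy-PEG and 1.32 ± 0.582 CPM in PBS hearts (log2 fold change 1.51, adjusted p = 0.0971; SD, n = 4 each). Without antimiR-195 replicates 2 and 3, which changes only the scaling, the filter and the shared estimate of spread in this comparison, Birc5, Aurka, Top2a, Mki67, Bub1 and Ccnb2 passed, 6 of the 12, in a fit that called 2.31% of genes. Psrc1 was the only 1 of the 30 other p53 targets to pass there, and none of the 10 p53 target genes did.

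For antimiR-195 against Upy-PEG all 12 mitotic genes had a negative log2 fold change, 7 at an unadjusted p under 0.05 (6.4% of all genes were lower at that level), with a median of -0.75. Without antimiR-195 replicates 2 and 3 the median was -1.07 and 11 were at that level, as 6.61% of genes were. Mki67 averaged 11.5 ± 2.23 CPM in antimiR-195 and 28.4 ± 11 CPM in Upy-PEG hearts (log2 fold change -1.31, adjusted p = 0.364). The 12 genes summed to 52.2 to 90.2 CPM in antimiR-195, 96.9 to 166 CPM in Upy-PEG and 48.6 to 73.9 CPM in PBS libraries, so no antimiR-195 library reached the Upy-PEG range. Cdkn1a and the mitotic genes did not always rank alike. AntimiR-195 replicate 4 had the highest Cdkn1a of the 12 and a mitotic sum of 75.3 CPM. That sum lay below every Upy-PEG library and just above every PBS library. Upy-PEG replicate 1 had the highest Cdkn1a of its group and the highest mitotic sum, 166 CPM.

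Marker sums of cell types are given beside these values, and they did not all follow Cdkn1a. AntimiR-195 replicate 4, the highest in Cdkn1a, had 451 CPM of macrophage and 3330 CPM of fibroblast markers. The 10 macrophage markers summed to 349 to 710 CPM in antimiR-195 (710 in replicate 2), 492 to 743 CPM in Upy-PEG and 266 to 421 CPM in PBS libraries. All 10 were higher in Upy-PEG than in PBS, 9 at an unadjusted p under 0.05 (edgeR; 9.33% of all genes were). In antimiR-195 all 10 were lower than in Upy-PEG, 5 at that level (6.4% of all genes). Without antimiR-195 replicates 2 and 3, 10 were (6.61%). The 6 neutrophil markers were all lower there too, 2 at that level and 6 without the pair. Fibroblast markers, 8 genes, summed to 2690 to 4510 CPM in antimiR-195, 3900 to 8300 CPM in Upy-PEG and 2880 to 4750 CPM in PBS libraries. Collagen made up most of the 8300 CPM of Upy-PEG replicate 1 (Col1a1 2590, Col3a1 2620 and Col1a2 1790 CPM). Without antimiR-195 replicates 2 and 3, Upy-PEG against PBS gave log2 fold changes of 0.45 (Lum) to 1.66 (Postn) for Lum, Postn and these collagens. Dcn, Tcf21 and Pdgfra stood at 0.1, 0.1 and 0.03 there. Cardiomyocyte markers summed to 94500 to 105000 CPM in antimiR-195, 70400 to 95100 CPM in Upy-PEG and 96900 to 112000 CPM in PBS libraries. The lowest sums were those of Upy-PEG replicates 1 and 2, 70400 and 78900 CPM. All 10 were lower in Upy-PEG than in PBS, as 8168 of 14770 genes were. Of the 10, 1 was so at an unadjusted p under 0.05 (edgeR), where 3.83% of all genes were. The part of these cells in the values of Cdkn1a and the mitotic genes was not tested. In bulk tissue, more cells of a type and more RNA per cell cannot be told apart.

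Among 17 cyclins, cyclin-dependent kinases and their inhibitors, 3 were higher and 1 lower in Upy-PEG than in PBS at an unadjusted p under 0.05, where 9.33% and 3.83% of all genes were. The 3 were Ccna2 (log2 fold change 1.23), Cdk1 (1.23) and Ccnb1 (1.45), which drive entry into mitosis, with adjusted p of 0.114 to 0.116. The lower one was Cdkn1c, the relative of Cdkn1a that encodes p57, with 31.3 ± 7.92 CPM in antimiR-195, 21.8 ± 3.24 CPM in Upy-PEG and 30.6 ± 4.77 CPM in PBS hearts (SD, n = 4 each). Its log2 fold change was -0.49 for Upy-PEG against PBS (adjusted p = 0.24) and 0.52 for antimiR-195 against Upy-PEG (adjusted p = 0.364), or 0.27 without antimiR-195 replicates 2 and 3. The third member of that family, Cdkn1b (p27), stood at -0.07 for Upy-PEG against PBS (adjusted p = 0.827).

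In the BCL2 family, 2 of 11 genes were higher in Upy-PEG than in PBS at an unadjusted p under 0.05, where 9.33% of all genes were. They were Bok (0.5, adjusted p = 0.271) and Bak1, the close relative of Bax (0.34, adjusted p = 0.32). Bcl2l11, which encodes the cell death protein Bim, was lower in every antimiR-195 library than in every Upy-PEG library, as 2.46% of all genes were. It averaged 14.8 ± 2.13 CPM in antimiR-195 and 19.9 ± 1.22 CPM in Upy-PEG hearts (SD, n = 4 each, log2 fold change -0.43, adjusted p = 0.364). The survival genes Mcl1 and Bcl2 stood at -0.04 and 0.09 for Upy-PEG against PBS. Among 12 genes of the ATF4 response, 5 were higher in Upy-PEG than in PBS at that level, again beside 9.33% of all genes. Among them were Mthfd2 (0.87, adjusted p = 0.114) and Psat1 (0.8, adjusted p = 0.182) of one-carbon and serine metabolism and the stress factor Atf3 (0.75, adjusted p = 0.223). For antimiR-195 against Upy-PEG, where Sesn2 stood at -0.54, Psat1 stood at -0.68 and Ddit3 at 0.54 with an adjusted p of 0.364 and 0.37, and Atf4 itself at 0.14. Without antimiR-195 replicates 2 and 3, Psat1 stood at -0.78, Ddit3 at 0.11 and Atf4 at -0.1.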

How the data were processed

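Polyadenylated RNA of 12 left ventricle libraries was extracted with TRIzol, and the stranded TruSeq mRNA kit was used, per the labels' protocols. The tools were STAR, HTSeq and DESeq and the build GRCm38, per the submitters' processing notes; versions are not given in the sources used here. The deposited tables hold raw read counts per gene and the authors' RPKM (reads per kilobase of gene, scaled to the library's counted reads). Reads on no gene stayed out of the totals. They were 6.25% to 8.77% of a library's reads counted to a gene, to no gene or as ambiguous between genes. Replicate numbers follow the order of deposition and pair no samples.

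Counts of all 12 libraries were tested with edgeR 4.0.16 (R 4.3.3, limma 3.58.1): filterByExpr by group, TMM scaling, a quasi-likelihood fit of group means, and Benjamini-Hochberg adjustment over 14770 genes at 0.05. CPM are TMM-scaled, with no prior count, and were correlated on the log2 scale with a prior count of 2. The SE is the log2 fold change divided by the square root of its F. RPKM served only to compare genes per length, to derive gene lengths and in limma-trend alternatives. Gene symbols came from GENCODE, for 36345 of 38293 IDs, and the scripts were tested on simulated data. The closing section gives the alternatives, among them DESeq2 1.42.0 and limma voom.

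The members and gene lists were chosen with earlier results of these data known. The members and Trp53 are named in every comparison, genes of other lists for the lowest p of their list, for passing in an alternative fit, or as relatives of members, and a few more (Xpc, Mcl1, Bcl2, Atf4 and Ddit3) after their values were seen. A result for another listed target is not reported here.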

Additional observations from a re-analysis of the deposited data

Results flagged for a closer look

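Among the 10 p53 target genes in 3 groups of 4 libraries, 30 sets of values were checked for a library far from the rest of its group, and chance marks about 1 in 20 such sets. Both that stood out were of Zmat3. Upy-PEG replicate 1 had 24 CPM where the next highest of its group had 18.2, a gap of 0.849 of the group's range. PBS replicate 1 had 14.2 CPM where the next lowest of its group had 17.1, a gap of 0.847 of the range. Without these libraries in turn, the log2 fold change of Zmat3 for Upy-PEG against PBS was 0.11 and 0.16.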

How the results depend on the processing

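No paired analysis was possible because replicate numbers only follow the order of deposition. Of 720 settings of the 30 log2 fold changes, 672 kept the direction of the value reported and its side of the threshold; the cause of the other values was not tested. The 1 that crossed the threshold was Cdkn1a for Upy-PEG against PBS with only the 8 libraries compared (0.9, adjusted p 0.0485), so the count of the 10 genes past the threshold was 1 there and 0 under each other setting and comparison. Not all of the 720 were free to change. The threshold of 0.10 reused the reported fit, so it could turn no direction. Leaving out a library of the group outside a comparison could reach it only through scaling, filter and shared spread. Library size alone moved the median of all genes by 0.1 for Upy-PEG against PBS and -0.15 for antimiR-195 against Upy-PEG, and RPKM plus 0.1 likewise. For Upy-PEG against PBS, library size alone gave 0.047 for Mdm2 and 0.095 for Eda2r, RPKM plus 0.1 gave Mdm2 0.045, and RPKM plus 1 gave Mdm2 0.042 and Eda2r 0.016. For antimiR-195 against Upy-PEG, library size alone gave Ccng1 -0.046 and Phlda3 -0.12, RPKM plus 0.1 -0.056 and -0.15, RPKM plus 1 -0.056 and -0.14, and voom with sample weights gave Phlda3 -0.28. In that comparison, leaving out antimiR-195 replicates 2 and 3 gave Cdkn1a 0.11, Mdm2 0.018, Bax -0.12, Phlda3 -0.4 and Eda2r 0.039, and the length slope as a covariate gave Cdkn1a 0.12, Bax -0.025, Phlda3 -0.3 and Eda2r 0.018. For antimiR-195 against PBS, Zmat3 was -0.033 with library size alone, -0.037 with RPKM plus 0.1 and -0.025 with RPKM plus 1. There Ccng1, at -0.0034 with all libraries, was 0.00017 with a mean CPM of at least 1, 0.054 with voom, 0.16 without the pair of libraries and 0.12 with the length slope, and Eda2r was 0.018 without the pair and 0.0085 with the slope. With 1 library left out in turn, the log2 fold changes that crossed 0 ran from -0.35 to 0.19 (Eda2r) for Upy-PEG against PBS, from -0.62 to 0.025 (Cdkn1a), -0.27 to 0.11 (Bbc3) and -0.26 to 0.17 (Phlda3) for antimiR-195 against Upy-PEG, and from -0.092 to 0.079 (Ccng1) and -0.053 to 0.063 (Zmat3) for antimiR-195 against PBS. The count over all genes was 0 in each comparison by edgeR, with 1944, 1930 and 2444 genes at an unadjusted p under 0.05. For Upy-PEG against PBS it was 69 with no filter, 511 by DESeq2, 918 by voom, 172 with 8 libraries, 155 at an adjusted p under 0.10, 349 without antimiR-195 replicates 2 and 3 and 332 with the length slope; leaving out 1 library gave 0 to 150, with 46 without Upy-PEG replicate 3 and 150 without antimiR-195 replicate 2. For antimiR-195 against Upy-PEG DESeq2 gave 16, and for antimiR-195 against PBS it gave 97, no filter gave 1 and voom 1. The counts of the other lists without antimiR-195 replicates 2 and 3 were chosen after seeing the data. With 4 libraries a group and low genes such as Eda2r and Bbc3, a difference of the size of their SE is not detectable.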

Other observations

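Relatives of the p53 target genes gave values that belong to no comparison above. Phlda1, a relative of Phlda3, averaged 59.9 CPM in antimiR-195, 34.5 CPM in Upy-PEG and 35.3 CPM in PBS hearts, with a log2 fold change of 0.8 for antimiR-195 against Upy-PEG (SE 0.324, adjusted p = 0.364, edgeR). Its antimiR-195 replicates 2 and 3 had 110 and 58.2 CPM and the other antimiR-195 libraries 35.2 and 36 CPM, and without the first pair the log2 fold change was 0.05. Edar, a receptor related to Eda2r, averaged 0.165 CPM in antimiR-195 and 0.447 CPM in PBS hearts (log2 fold change -1.4, SE 0.49, adjusted p = 0.253), or -0.9 with replicates 2 and 3 of antimiR-195 left out. Eda, the gene of the ligand, averaged 2.36 CPM in antimiR-195, 2.67 CPM in Upy-PEG and 2.7 CPM in PBS hearts.

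Rps27l, a short p53 target of 816 bases that encodes a ribosomal protein, was higher in every antimiR-195 library than in every PBS library. It was 1 of the 30 other p53 targets to be so, as 2.74% of all genes were. It had 59.7, 119, 72.3 and 59.9 CPM in antimiR-195 and 53, 42.6, 50.9 and 56.3 CPM in PBS libraries (log2 fold change 0.62, adjusted p = 0.253, edgeR), with the highest values in antimiR-195 replicates 2 and 3 and a log2 fold change of 0.24 without them. Mdm4, the partner of Mdm2, had its 2 lowest values there, 3.57 and 4.06 CPM, against 13.4 and 15.4 CPM in the other antimiR-195 libraries. The log2 fold change of Mdm4 for antimiR-195 against PBS was -0.71 (adjusted p = 0.368, edgeR), or -0.05 without replicates 2 and 3. For Upy-PEG against PBS it was -0.4 (adjusted p = 0.758, edgeR). The genes whose levels followed each member most closely over the 12 libraries were Mdk for Phlda3 (Pearson r = 0.97), Mtmr11 for Sesn2 (0.946), C7 for Mdm2 (0.984), Tcaim for Ccng1 (0.953), Lrrc59 for Zmat3 (0.962), Pkd2 for Eda2r (0.93), Foxs1 for Bbc3 (0.904) and Agmo for Trp53inp1 (0.827).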
